A study of Mus musculus with 18 samples.

Results

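Translesion synthesis and damage tolerance were followed in mouse embryonic fibroblasts (MEFs) through 9 genes picked by name from the 51912 genes of the count table: Polh, Poli, Polk, Rev1, Rev3l, Mad2l2, Rad18, Primpol and Pcna. All 9 were found in the table and all 9 passed the filter on low counts, as did 15710 genes in all. RNA-seq had been done on primary MEFs at passage 1, grown in 15% serum and 5% oxygen, from embryos of 6 genotypes with 3 libraries each: Trp53+/+, Trp53+/- or Trp53-/- embryos with intact Pole4 (Pole4+/+), and the same 3 Trp53 genotypes without it (Pole4-/-). The labels do not say which libraries came from separate embryos, so the p values measure the spread between these libraries, which may be partly technical. The comparisons ask how the absence of POLE4, a small subunit of the replicative DNA polymerase ε, and the loss of the tumor suppressor TRP53 changed the transcripts of these genes, alone and together.

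A replication fork that meets a damaged base can stall, because the replicative polymerases read only intact templates well. In translesion synthesis a polymerase with a roomier active site takes over for a short stretch and inserts a base opposite the lesion. POLH (polymerase η), POLI (polymerase ι), POLK (polymerase κ) and REV1 belong to this Y family of polymerases; REV3L is the catalytic subunit of polymerase ζ, which extends the strand past the lesion, and MAD2L2 (REV7) is its accessory subunit. PCNA is the sliding clamp that holds polymerases on DNA, and RAD18 is the ubiquitin ligase that marks PCNA at stalled forks so that the translesion polymerases are recruited. PRIMPOL restarts synthesis beyond a lesion by laying down a new primer. TRP53 is a transcription factor that responds to DNA damage and induces, among others, the cell cycle inhibitor Cdkn1a.

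Levels are given as counts-per-million (CPM) values after TMM scaling (trimmed mean of M-values), which sets the libraries to a common scale. The libraries held from 9535971 to 35319918 counts (median 22781543), and ribosomal RNA genes took from 0.968% to 42.5% of them. Trp53 stood between 64.2 and 96.1 CPM in the 6 Trp53+/+ libraries, between 48.4 and 59.6 CPM in the 6 Trp53+/- libraries and between 8.65 and 12.1 CPM in the 6 Trp53-/- libraries. Pole4 stood between 14.2 and 26.4 CPM in the 9 Pole4+/+ libraries and between 9.26 and 12 CPM in the 9 Pole4-/- libraries, so that counts of this transcript remained in the null cells. All 8 fibroblast markers examined were found in every library, while the defining markers of endothelium (Pecam1, Cdh5), epithelium (Epcam, Cdh1) and red cells (Hba-a1, Hbb-bs) were at 0 in some libraries and at most 0.566 CPM in any. The red cell list of 6 genes summed to at most 1.86 CPM in any library, with Hba-a2 the highest at up to 1.21 CPM. Of the other endothelial and epithelial genes, Krt14 was at 0 in 11 libraries, while some were found in every library at low level, among them Kdr at 0.742 to 4.71 CPM, Egfl7 at 1.17 to 3.19 CPM, Krt8 at 0.0666 to 4.44 CPM and Krt18 at 1.88 to 15.1 CPM. Xist was at most 2.97 CPM in 7 libraries and at least 375 CPM in the other 11; all 3 Pole4+/+ Trp53+/- libraries were among the 7, none of the other Pole4+/+ libraries was, and the Pole4-/- genotypes were mixed. Replicate 1 of Pole4+/+ Trp53-/- had a summed level of 16 S-phase genes of 732 CPM, against 1316 and 1562 CPM in the other 2 libraries of its genotype. It was picked with these values seen, and groups of 3 are too small to call it an outlier. Results that rest on it are given with and without it.

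On the genome (GRCm38), Polh lay at chr17:46171355-46202645, Polk at chr13:96480690-96542579, Rev1 at chr1:38052786-38129801, Primpol at chr8:46575594-46617212, Rad18 at chr6:112619850-112696686 and Pcna at chr2:132249162-132253314, all on the minus strand. Rev3l lay at chr10:39732118-39875211 and Mad2l2 at chr4:148130384-148145699, both on the plus strand, and Poli on chromosome 18. The counting is not stated to have used strand, and 2 of the 9 overlap an expressed gene on the opposite strand. Rev1 shares 2794 bases with Eif5b, which stood between 140 and 227 CPM, and Primpol shares 4414 bases with Cenpu, at 2.67 to 9.42 CPM. The counts of Rev1 and Primpol were whole in all 18 libraries, so that none of their reads was divided between genes. Pcna has the processed pseudogenes Pcna-ps1 and Pcna-ps2, and its count was fractional in 16 of 18 libraries, the counting being one that divides reads between near-identical copies. The pseudogenes themselves were given at most 1.21 CPM.

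Between genes, levels were compared as CPM per kilobase of summed exon length. In Pole4+/+ Trp53+/+ MEFs the level of Pcna was 34.6 ± 5.77 CPM per kilobase (SD, n = 3). Polk followed at 7.79 ± 0.554 CPM per kilobase and was the highest of the translesion polymerases there. Rev1 (4.22 ± 0.44), Rev3l (4.2 ± 0.233), Rad18 (4.12 ± 0.537) and Polh (4.05 ± 0.39 CPM per kilobase) did not differ beyond their spread. Mad2l2 stood at 2.05 ± 0.166, Primpol at 1.01 ± 0.10 and Poli at 0.754 ± 0.046 CPM per kilobase. The precision follows these levels: the count of Poli in a library was as low as 26, against at least 206 for Polk and at least 341 for Pcna.

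Polk, the polymerase best known for bypassing bulky adducts on guanine, had the largest log2 fold change of the 9 genes between Trp53-/- and Trp53+/+ MEFs in both Pole4 backgrounds. Among Pole4-/- MEFs it stood at 50.8, 56.8 and 58.8 CPM in Trp53+/+, at 45.9, 38.7 and 42 CPM in Trp53+/- and at 20.4, 18 and 17.6 CPM in Trp53-/- cells. Among Pole4+/+ MEFs it stood at 41.8, 41.3 and 46.8 CPM in Trp53+/+, at 37.5, 33.3 and 37.6 CPM in Trp53+/- and at 17.9, 18.2 and 16.7 CPM in Trp53-/- cells. In both backgrounds the Trp53+/+, Trp53+/- and Trp53-/- libraries did not overlap, and every Trp53-/- library lay below every library that kept a Trp53 copy. Among cells with both Trp53 copies the mean level of Polk was 55.5 ± 4.14 CPM without and 43.3 ± 3.07 CPM with Pole4 (SD, n = 3 each). With 1 Trp53 copy it was 42.2 ± 3.59 and 36.1 ± 2.46 CPM, and with none 18.6 ± 1.51 and 17.6 ± 0.835 CPM. In the order of these 6 levels, Pole4+/+ Trp53+/+ overlapped with its neighbour Pole4-/- Trp53+/-, as did the Trp53-/- genotypes with each other, whereas the other neighbours did not.

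Polk fell in Trp53-/- against Trp53+/+ MEFs by 1.57 on the log2 scale in the Pole4-/- background (SE 0.10, adjusted p = 4.21e-08), to 33.7% of its level. In the Pole4+/+ background it fell by 1.3 (SE 0.09, adjusted p = 4.69e-07), to 40.8%. Here and below, p values are from edgeR's quasi-likelihood test with Benjamini-Hochberg adjustment over 15710 genes, and a gene is called where the adjusted p is under 0.05. The difference between these 2 effects was −0.27 (SE 0.13, adjusted p = 0.188). Polk was also lower in Trp53-/- than in Trp53+/- MEFs, with log2 fold changes of −1.18 in Pole4-/- (adjusted p = 1.57e-06) and −1.04 in Pole4+/+ cells (adjusted p = 1.07e-05). Loss of a single Trp53 copy came with a log2 change of −0.39 in Pole4-/- (SE 0.09, adjusted p = 0.0314) and of −0.26 in Pole4+/+ MEFs, which was not called (SE 0.09, adjusted p = 0.267). Since RNA came from whole cultures, fewer cells that express a gene and less of its RNA per cell cannot be told apart, here and for every gene below.

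The count table has 1 value for the whole Polk gene, although RefSeq places 2 starts in it: an outer start before the gene and an inner start within it. Both are shown because these counts do not separate transcripts by their start. In the bases before each start (RefSeq, GRCm38.p6, minus strand), capitals mark a match to a GC box (GGGCGG, in the outer sequence on the reverse strand as CCGCCC) or to the TRP53 half-site, the 10-base consensus that the factor binds in pairs. The outer sequence is chr13:96542580-96542829 and the inner is chr13:96519188-96519437, which overlapped no annotated exon of Polk.
Polk outer start: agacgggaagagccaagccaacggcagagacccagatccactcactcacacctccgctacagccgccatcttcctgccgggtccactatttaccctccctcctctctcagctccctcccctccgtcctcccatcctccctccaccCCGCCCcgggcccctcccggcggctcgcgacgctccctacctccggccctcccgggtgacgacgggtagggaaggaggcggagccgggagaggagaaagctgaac
Polk inner start: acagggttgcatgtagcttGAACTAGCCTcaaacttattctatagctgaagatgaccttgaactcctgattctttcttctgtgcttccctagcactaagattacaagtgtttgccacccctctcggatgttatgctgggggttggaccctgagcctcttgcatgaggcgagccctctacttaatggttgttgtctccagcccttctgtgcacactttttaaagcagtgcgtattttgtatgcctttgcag
The half-site match lay 231 bases before the inner start, and a single half-site match or more was present in 8.36% of all 32851 windows of the same length (300 bases, 250 before and 50 after a start, both strands searched). Primpol, which was not called in any comparison, also held a half-site match, 24 bases before its start. The GC box was present in 35.7% of all windows.

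**Figure D1:**
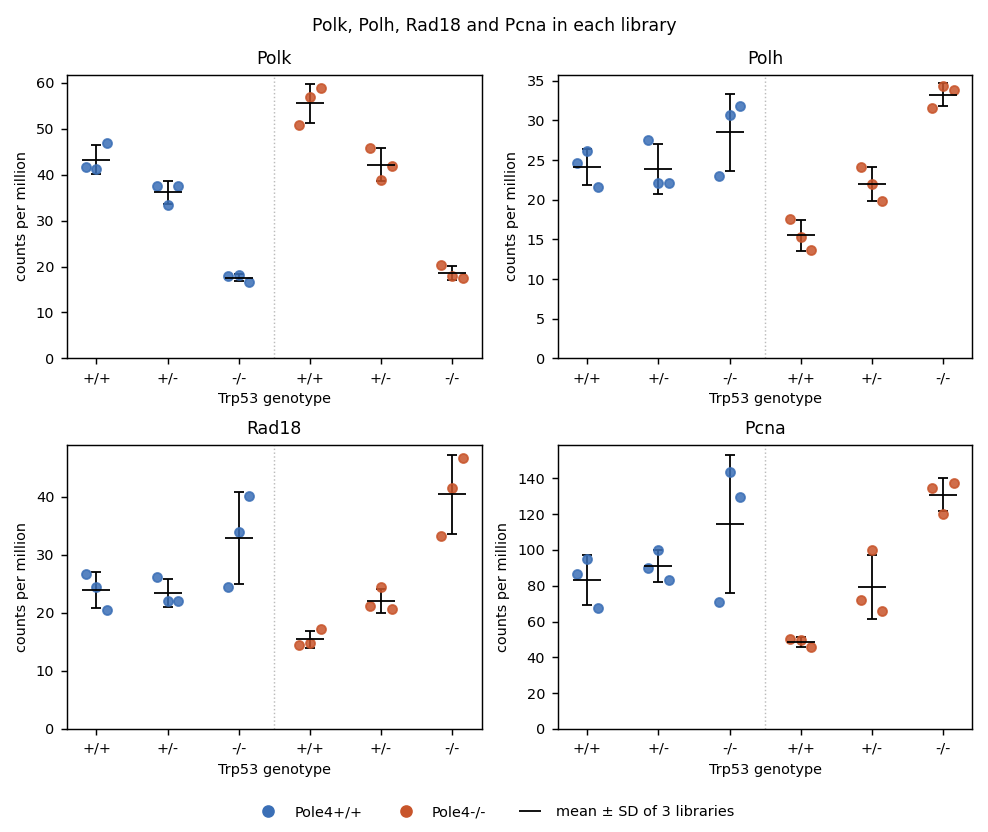
Level of Polk, Polh, Rad18 and Pcna in each library (y axes, CPM after TMM scaling, from 0), by Trp53 genotype (x axes); points are libraries, colored by Pole4 genotype, and bars give the mean ± SD of 3 libraries. Polk lies between 16.7 and 20.4 CPM in all 6 Trp53-/- libraries and above 33 CPM in all others, whereas Polh, Rad18 and Pcna are lowest in Pole4-/- Trp53+/+ and highest on average in Pole4-/- Trp53-/- MEFs.

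Pcna, Rad18 and Polh moved in the direction opposite to Polk when Trp53 was lost from Pole4-/- cells. In this background Pcna stood at 50.3, 49.7 and 45.6 CPM in Trp53+/+, at 72.2, 99.8 and 66.0 CPM in Trp53+/- and at 135, 120.3 and 138 CPM in Trp53-/- MEFs. Rad18 stood at 14.5, 14.8 and 17.1 CPM in the first of these genotypes, at 21.1, 24.4 and 20.7 CPM in the second and at 33.2, 41.5 and 46.7 CPM in the last. Polh, whose product copies accurately past ultraviolet-induced thymine dimers, stood at 17.6, 15.3 and 13.7 CPM, at 24.1, 22.0 and 19.9 CPM and at 31.6, 34.3 and 33.9 CPM in the same order. For each of these genes the Trp53+/+ libraries were the lowest and the Trp53-/- libraries the highest, with the Trp53+/- libraries between and no overlap.

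Between Pole4-/- Trp53-/- cells and their Trp53+/+ counterparts the log2 fold change was 1.43 for Pcna (SE 0.22, adjusted p = 0.000139), a 2.69-fold rise. For Rad18 it was 1.39 (SE 0.17, adjusted p = 2.62e-05), a 2.63-fold rise, and for Polh 1.09 (SE 0.14, adjusted p = 3.33e-05), a 2.13-fold rise. With Polk and Rev1, which fell, 5 of the 9 genes were called in this comparison, 3 of them higher and 2 lower, where 42.6% of all genes tested were called, 21.8% higher and 20.8% lower. The libraries of the compared genotypes did not overlap for 7 of the 9 genes, against 57% of all genes. The median log2 fold change was −0.10 over the 9 genes and −0.02 over all genes.

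When Pole4 was intact, the Trp53-/- libraries varied more in the same genes. Pcna stood at 86.6, 94.8 and 67.8 CPM in Trp53+/+, at 89.9, 100.2 and 83.0 CPM in Trp53+/- and at 70.9, 144 and 129 CPM in Trp53-/- MEFs. In this order Rad18 stood at 26.7, 24.5 and 20.5 CPM, at 26.2, 22.0 and 22.1 CPM and at 24.4, 34.0 and 40.1 CPM, and Polh at 24.6, 26.2 and 21.6 CPM, at 27.5, 22.1 and 22.1 CPM and at 23.0, 30.7 and 31.8 CPM. The first value of each Trp53-/- group is replicate 1, which lay within the range of the libraries that kept Trp53.

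With all libraries, Trp53-/- against Trp53+/+ in the Pole4+/+ background gave a log2 fold change of 0.46 for Pcna (SE 0.21, adjusted p = 0.244), 0.45 for Rad18 (SE 0.17, adjusted p = 0.135) and 0.24 for Polh (SE 0.13, adjusted p = 0.38). Polk was the only one of the 9 genes called, where 4.6% of all genes were, and only Polk and Mad2l2 did not overlap, against 16.5% of all genes. Without replicate 1 of Pole4+/+ Trp53-/-, 3 of the 9 genes and 2700 of all genes were called (against 723 with it), Polk lower and Rad18 and Pcna higher, with log2 fold changes of 0.60 for Rad18 and 0.69 for Pcna. Over the fits without 1 library the values ranged from 0.27 to 0.60 for Rad18, 0.26 to 0.69 for Pcna and 0.14 to 0.34 for Polh. An interaction term asked if Trp53 loss acted differently with and without Pole4: 0 of the 9 genes were called, where 0.331% of all genes were, and 3 had an unadjusted p under 0.05, as had 28.3% of all genes. The interaction was 0.85 for Polh (SE 0.19, adjusted p = 0.0508), 0.94 for Rad18 (SE 0.24, adjusted p = 0.0548) and 0.97 for Pcna (SE 0.30, adjusted p = 0.0748), so that these 3 lay close to the threshold. DESeq2 called these 3 genes in the interaction, where it called 1791 genes in all, against 52 with edgeR. With edgeR, 2 were called without replicate 3 of Pole4+/+ Trp53+/+ and 1, 3 and 4 without replicate 1, 2 or 3 of Pole4+/+ Trp53-/-, Polh in each case, while over all genes these 4 fits called 408, 170, 1973 and 3242.

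Of the genes that rose in Pole4-/- Trp53-/- MEFs, Polh and Pcna are shown with the sequences before their starts. Rad18 rose too, but its windows held no match. Whether the motifs take part in the changes was not tested. Capitals mark the GC box (GGGCGG) and, in Polh only, a palindrome of 10 bases, present as a pair, that the transcription factor NRF1 binds. Each is given on the minus strand of GRCm38.p6 from RefSeq, ending before the first annotated start: Polh at chr17:46202646-46202891 and Pcna at chr2:132253315-132253430.
Polh: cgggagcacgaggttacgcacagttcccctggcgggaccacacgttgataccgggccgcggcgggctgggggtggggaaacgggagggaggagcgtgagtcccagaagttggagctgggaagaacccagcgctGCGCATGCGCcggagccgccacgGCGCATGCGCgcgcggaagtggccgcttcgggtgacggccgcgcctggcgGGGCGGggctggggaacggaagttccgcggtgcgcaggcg
Pcna: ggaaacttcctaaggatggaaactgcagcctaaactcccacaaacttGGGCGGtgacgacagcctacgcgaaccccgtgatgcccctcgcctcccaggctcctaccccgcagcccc
Polh held the NRF1 palindrome 117 and 94 bases before its start, a pair found in 0.0335% of the 32851 windows, while a match or more was found in 0.971%. A CCAAT box, present in 37.4% of windows, lay on the reverse strand 87 bases before the RefSeq start of Pcna, beyond the printed stretch. Another GC box lay beyond that stretch, 116 bases before the start. The GC box was also matched in Polk and Rev1, which fell in Pole4-/- Trp53-/- MEFs, and in Primpol and Mad2l2, which were not called there. Of 7 members with a window in the table (Poli and Rev3l had none), none matched the E2F motif TTTNNCGC (5.17% of windows), the cell cycle element TTTGAA (17.9%) or the cyclic AMP response element (1.79%), and both windows of Rad18 matched none of the motifs searched.

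Loss of POLE4 alone, in Trp53+/+ cells, came with lower Polh and Rad18 and higher Polk. Among Trp53+/+ MEFs Polh fell in Pole4-/- against Pole4+/+ cells by 0.63 on the log2 scale (SE 0.14, adjusted p = 0.0272), to 64.7% of its level. Rad18 fell by 0.64 (SE 0.17, adjusted p = 0.0487), to 64.3%, and Polk rose by 0.36 (SE 0.09, adjusted p = 0.045), to 128%. The value for Pcna was −0.77 (SE 0.21, adjusted p = 0.0536), which just missed the threshold although its Pole4-/- libraries, at 45.6 to 50.3 CPM, all lay below the 67.8 to 94.8 CPM of the Pole4+/+ libraries. Pcna was called in this comparison under 9 of 10 alternatives (adjusted p from 0.000302 to 0.201), the exception being Xist as a covariate. In all, 3 of the 9 genes were called, where 3.98% of all genes tested were, and 8 of the 9 did not overlap between these genotypes, against 41.1% of all genes. Mad2l2 (−0.41, SE 0.18, adjusted p = 0.155), Poli (0.50, SE 0.22, adjusted p = 0.169) and Rev1 (0.27, SE 0.12, adjusted p = 0.17) did not overlap either but were not called. This comparison shares its Pole4-/- libraries with the Trp53 comparison in the Pole4-/- background, so that a low level there enters both.

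These calls were close to the threshold and rested on few libraries. None of the 9 genes was called without replicate 1 or replicate 2 of Pole4+/+ Trp53+/+, or without replicate 2 or replicate 3 of Pole4-/- Trp53+/+, only Polh was called without replicate 1 of Pole4-/- Trp53+/+, and 4 genes were called without replicate 3 of Pole4+/+ Trp53+/+. The calls over all genes moved too, from 626 to 26, 8, 18, 12, 140 and 799 in these 6 fits in the same order. With log2 Xist as a covariate 0 of the 9 and 11 of all genes were called; all 3 Pole4+/+ Trp53+/+ libraries had high Xist, as had 1 of the 3 Pole4-/- Trp53+/+ libraries.

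Once a Trp53 copy was lost, no difference between the Pole4 genotypes was called for any of the 9 genes. In Trp53+/- and in Trp53-/- MEFs 0 of the 9 genes were called, where 0.00637% of all genes were in each. 1 of the 9 genes, Polk, had an unadjusted p under 0.05 in Trp53+/- and 0 had in Trp53-/- MEFs (5.51% and 10.4% of all genes). DESeq2 also called 0 of the 9 in both, where it called 43 and 29 genes in all. Among Trp53+/- MEFs Polk was at 38.7 to 45.9 CPM without and at 33.3 to 37.6 CPM with Pole4, and did not overlap, where 13.1% of all genes did not (log2 fold change 0.22, SE 0.09, adjusted p = 0.856). Between the Trp53-/- genotypes all 9 genes overlapped, where 9.15% of all genes did not. These designs leave room for differences of moderate size: a p above the threshold does not show that the genotypes were alike.

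**Figure D2:**
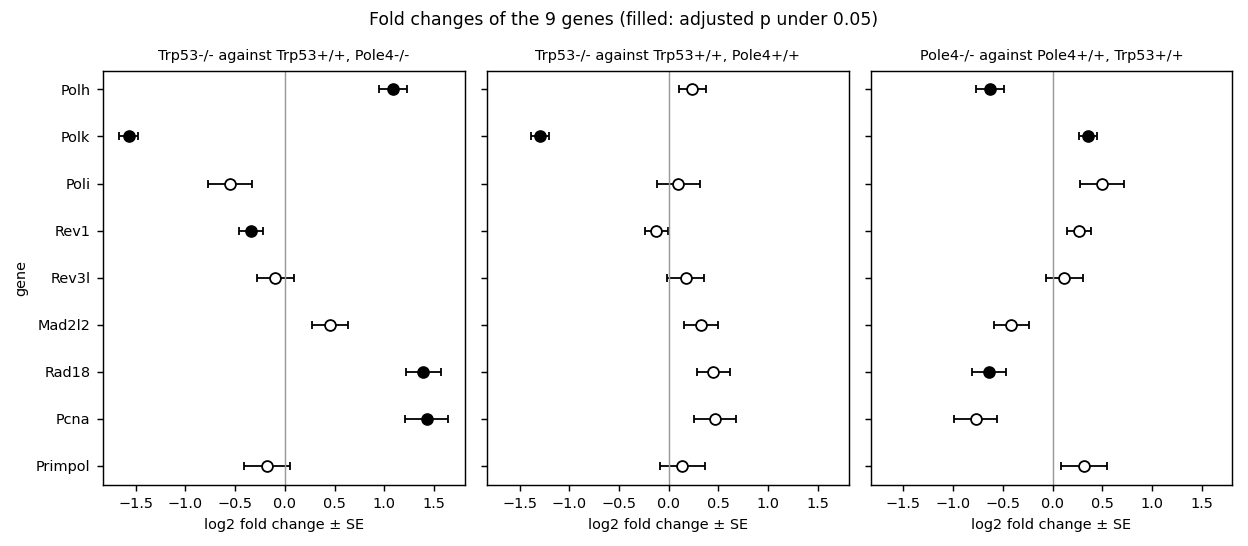
Log2 fold change ± SE (x axes) of the 9 genes (y axis) in 3 comparisons of 3 against 3 libraries, all from the fit of 18 libraries; filled points have an adjusted p under 0.05. Polk lies at −1.57 and −1.3 in the Trp53 comparisons, whereas Pcna, Rad18 and Polh lie above 1 only in the Pole4-/- background and below 0 where Pole4-/- is compared with Pole4+/+.

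Loss of a single Trp53 copy gave calls among the 9 genes in the Pole4-/- background only. The interaction, in which 0 of the 9 genes and 0% of all genes were called, did not show that the backgrounds differed. In it 3 of the 9 and 10.1% of all genes had an unadjusted p under 0.05, and DESeq2 called 0 of the 9 and 29 genes in all. Among Pole4-/- MEFs, Trp53+/- against Trp53+/+, 2 of the 9 genes were called, where 5.12% of all genes were, and 8 of the 9 did not overlap, against 40.3%: Polh rose by 0.49 on the log2 scale (SE 0.14, adjusted p = 0.0495), and Polk fell as given above. Pcna (0.70, SE 0.21, adjusted p = 0.0641), Rad18 (0.52, SE 0.17, adjusted p = 0.0809) and Mad2l2 (0.54, SE 0.18, adjusted p = 0.0797) lay above 0 with no overlap between the genotypes. Leaving out any 1 of the 6 libraries left 0 or 1 gene called (0 without replicate 2 or 3 of Pole4-/- Trp53+/+ or replicate 2 of Pole4-/- Trp53+/-), and with log2 Xist as a covariate 0 were. Over all genes these fits called 17 to 553 and, with Xist, 162, against 805. Among Pole4+/+ MEFs 0 of the 9 genes were called, where 0.904% of all genes were. There all Trp53+/- libraries had low and all Trp53+/+ libraries high Xist, so that Trp53 genotype and Xist state cannot be told apart. In this comparison Polk had an unadjusted p under 0.05, as had 10.2% of all genes, and DESeq2 called 0 of the 9 and 403 genes in all.

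The step from Trp53+/- to Trp53-/- in the Pole4-/- background moved 4 of the 9 genes, where 12.5% of all genes were called. Rad18 rose by 0.87 on the log2 scale (SE 0.17, adjusted p = 0.00387), Pcna by 0.72 (SE 0.21, adjusted p = 0.035) and Polh by 0.59 (SE 0.13, adjusted p = 0.0103), while Polk fell. The call of Pcna held only with all libraries or without replicate 2 of Pole4-/- Trp53+/-, and was lost without any of the other 5, and that of Polh was lost without replicate 3 of Pole4-/- Trp53+/-, while the calls over all genes ranged from 654 to 1803 in these fits, against 1963. With Pole4 intact only Polk was called at this step, where 0.579% of all genes were, and Polk, Rad18 and Pcna were called without replicate 1 of Pole4+/+ Trp53-/-, as were 1501 of all genes, against 91 with it. These Trp53+/- libraries all had low and the Trp53-/- libraries all high Xist, so that genotype and Xist state cannot be told apart. With log2 Xist as a covariate 27 of all genes were called, Polk among them.

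Rev1, which inserts cytosine and also serves as the platform on which the other translesion polymerases assemble, changed little. Without Pole4 it stood at 31.8, 29.6 and 32.7 CPM in Trp53+/+, at 27.4, 22.4 and 28.2 CPM in Trp53+/- and at 23.1, 25.2 and 25.8 CPM in Trp53-/- MEFs. The 9 Pole4+/+ libraries ranged from 21.5 to 28.0 CPM, and their 3 Trp53 genotypes overlapped. Rev1 fell from Trp53+/+ to Trp53-/- among Pole4-/- MEFs by 0.34 on the log2 scale (SE 0.12, adjusted p = 0.0303), to 78.7% of its level, and the value in the Pole4+/+ background was −0.12 (SE 0.12, adjusted p = 0.649). The call was lost without any 1 of replicates 1 and 3 of Pole4-/- Trp53+/+ or of the 3 Pole4-/- Trp53-/- replicates.

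Rev3l and Mad2l2, the polymerase ζ subunits among the 9 genes, were not called in any comparison of the main fit. Pold2 and Pold3, named here after their values were seen, encode subunits that polymerase ζ shares with polymerase δ, and rose from Trp53+/+ to Trp53-/- among Pole4-/- MEFs by 1.3 (SE 0.18, adjusted p = 6.56e-05) and 1.21 (SE 0.21, adjusted p = 0.000375) on the log2 scale. Among Pole4+/+ MEFs neither was called (0.54, SE 0.17, adjusted p = 0.0848, and 0.40, SE 0.20, adjusted p = 0.304). Rev3l, the catalytic subunit, stood between 47.4 and 63.3 CPM in 17 of the libraries and at 91.1 CPM in replicate 1 of Pole4+/+ Trp53-/-. Its log2 fold change between Trp53-/- and Trp53+/+ MEFs was −0.10 in Pole4-/- (SE 0.19, adjusted p = 0.717) and 0.17 in Pole4+/+ cells (SE 0.18, adjusted p = 0.695), where it turned to −0.23 without that library. Mad2l2, the accessory subunit, which also belongs to the shieldin complex at DNA breaks, stood among Pole4-/- MEFs at 4.38, 3.34 and 4.42 CPM in Trp53+/+, at 4.74, 6.59 and 6.33 CPM in Trp53+/- and at 6.76, 4.71 and 5.11 CPM in Trp53-/- cells. The Trp53+/+ libraries were the lowest, and the log2 fold change of Mad2l2 in Trp53-/- cells was 0.45 (SE 0.18, adjusted p = 0.0508), just short of the threshold. It ranged from 0.28 to 0.56 without 1 library and was called without replicate 2 of Pole4-/- Trp53-/-. Mad2l2 was called under 1 of 10 alternatives here, as for Trp53+/- in Pole4-/- and for Pole4-/- in Trp53+/+ cells. In Pole4+/+ cells Mad2l2 stood at 5.02 to 5.86 CPM in Trp53+/+ and at 6.05 to 7.19 CPM in Trp53-/- MEFs, without overlap (0.33, SE 0.17, adjusted p = 0.321).

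Poli and Primpol had the lowest levels per length, and neither was called in any comparison of the main fit. Poli, a polymerase of low fidelity, stood at 4.91, 3.67 and 4.28 CPM in Trp53+/+ and at 2.95, 2.88 and 2.98 CPM in Trp53-/- cells lacking Pole4. These groups did not overlap, and their difference was −0.55 on the log2 scale (SE 0.22, adjusted p = 0.0568), called under 5 of 10 alternatives. With Pole4 the level of Poli stood at 2.84 to 3.20 CPM in Trp53+/+ and at 2.10 to 4.44 CPM in Trp53-/- MEFs (0.09, SE 0.22, adjusted p = 0.875). Primpol ranged from 5.47 to 10.3 CPM over the 18 libraries, with log2 fold changes in Trp53-/- cells of −0.18 in Pole4-/- (SE 0.23, adjusted p = 0.575) and 0.13 in Pole4+/+ MEFs (SE 0.23, adjusted p = 0.823). The values of Poli and Primpol in the Pole4+/+ background turned to −0.25 each without replicate 1 of Pole4+/+ Trp53-/-, and that of Primpol in the Pole4-/- background turned to 0.09 without replicate 1 of Pole4-/- Trp53+/+.

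**Figure D3:**
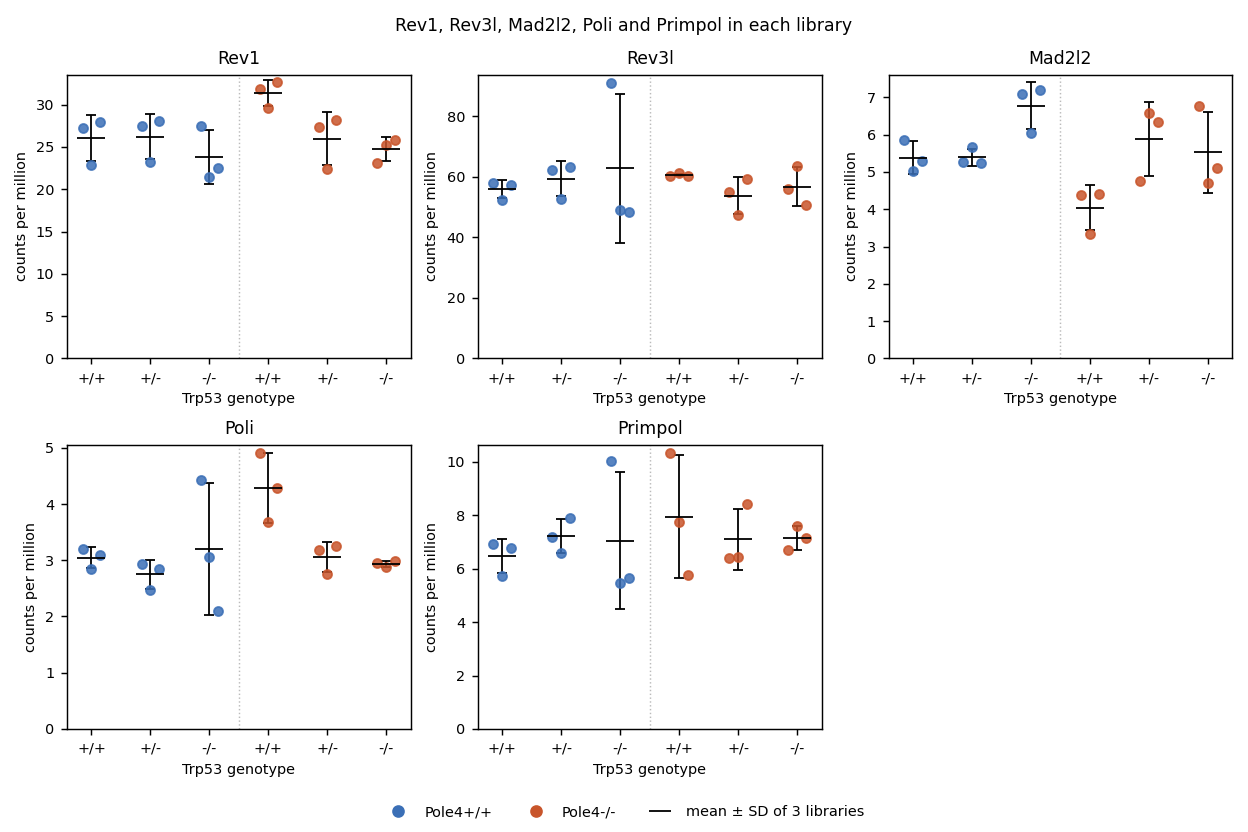
Level of Rev1, Rev3l, Mad2l2, Poli and Primpol in each library (y axes, CPM after TMM scaling, from 0), by Trp53 genotype (x axes); points are libraries, colored by Pole4 genotype, and bars give the mean ± SD of 3 libraries. Replicate 1 of Pole4+/+ Trp53-/- is the high point of its group for Rev3l (91.1 CPM), Primpol (10.0 CPM) and Poli (4.44 CPM).

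The other genes of the pathway were taken from 5 lists with 30 genes in all, of which 29 could be tested. Among Pole4-/- MEFs 22 of the 29 rose and 3 fell from Trp53+/+ to Trp53-/-, where 21.8% of all genes rose and 20.8% fell, and their median log2 fold change was 0.86 against −0.02 over all genes. Among Pole4+/+ MEFs 5 rose and 0 fell, where 2.23% of all genes rose. Without replicate 1 of Pole4+/+ Trp53-/- 18 of 30 tested rose and 0 fell, where 8.58% of all genes rose. Without Pole4, 9 of the 29 fell and 0 rose in Trp53+/+ cells, where 2.7% of all genes fell. That comparison called 8 to 799 of all genes without 1 library and 11 with log2 Xist as a covariate, against 626. From Trp53+/+ to Trp53+/- 6 rose in Pole4-/- MEFs, where 2.96% of all genes did, and 0 were called in Pole4+/+ MEFs. The Pole4-/- comparison of these called 17 to 553 of all genes without 1 library, against 805.

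Among the enzymes that modify PCNA, 5 of 8 rose and 2 fell in Pole4-/- Trp53-/- MEFs. The highest value was that of Dtl, the substrate receptor of the CRL4 ubiquitin ligase (1.52, SE 0.19), and the lowest among those called that of Hltf, a ligase that extends the ubiquitin chain on PCNA (−0.32, SE 0.11, adjusted p = 0.0318). Of 5 genes that remove ubiquitin from PCNA or unload it, 4 rose, from 0.69 (SE 0.14) for Usp7 to 1.63 (SE 0.18) for Usp1, the PCNA deubiquitinase. Of 4 tested genes among other polymerases and accessory subunits 3 rose and 1 fell: Polq, which joins DNA ends by their microhomology, had a value of 1.79 (SE 0.20), and Poldip2, which binds polymerase δ and PCNA, one of −0.22 (SE 0.07, adjusted p = 0.02). The call of Hltf was lost without replicate 1 or 3 of Pole4-/- Trp53+/+ or replicate 2 or 3 of Pole4-/- Trp53-/-, and that of Poldip2 without replicate 1 or 2 of the former or replicate 3 of the latter.

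All 5 subunits of the clamp loader, which places PCNA on DNA, rose, from 0.84 (SE 0.13) for Rfc2 to 1.65 (SE 0.18) for Rfc5. Of 7 partners of PCNA, RPA and the fork 5 rose, from 0.59 (SE 0.16) for the annealing helicase Zranb3 to 1.72 (SE 0.21) for the PCNA-binding protein Pclaf. The 5 genes called in both backgrounds were Dtl, Rfc1, Rfc2, Rfc5 and Zranb3. In Pole4+/+ cells their log2 fold changes were 0.77 (SE 0.18, adjusted p = 0.0214), 0.43 (SE 0.08, adjusted p = 0.00587), 0.52 (SE 0.12, adjusted p = 0.025), 0.63 (SE 0.17, adjusted p = 0.0447) and 0.64 (SE 0.16, adjusted p = 0.0321). None of these 5 was called in the Pole4+/+ background when only the 6 libraries compared were fitted or when library totals alone set the scale. Rfc1 was called without any 1 library, Rfc5 only with all of them or without replicate 1 of Pole4+/+ Trp53-/-, and the other 3 were lost without 3 of the 6 libraries each, among them replicate 3 of Pole4+/+ Trp53+/+.

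**Figure D4:**
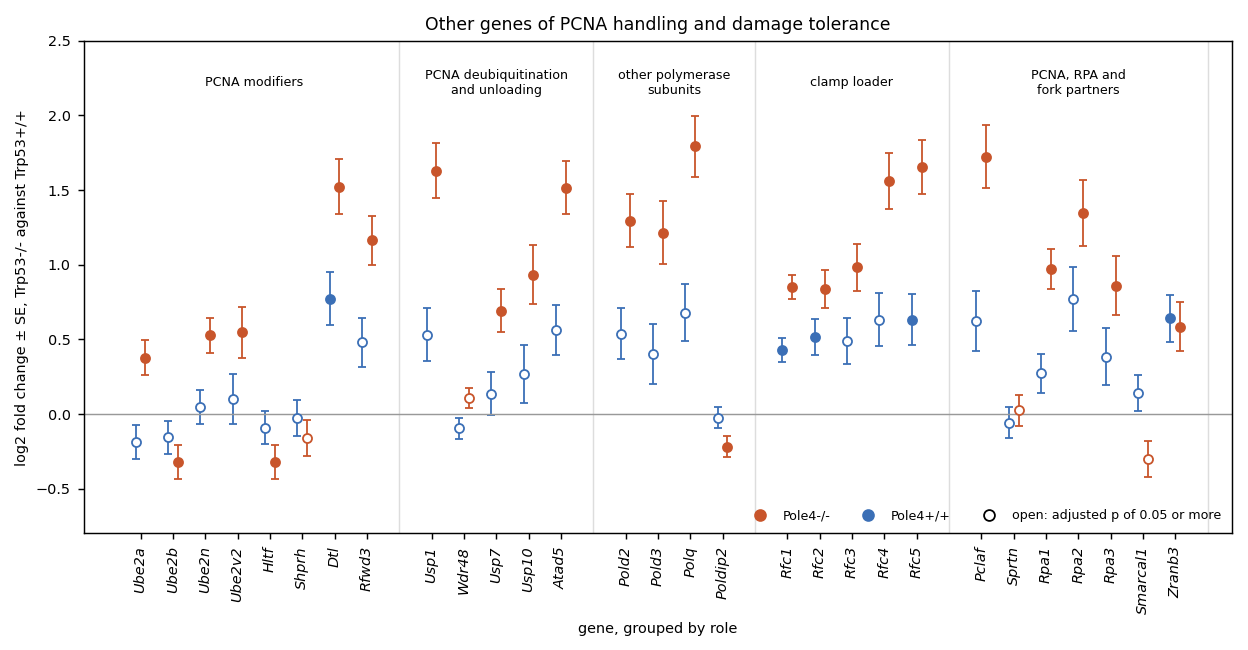
Log2 fold change ± SE (y axis) between Trp53-/- and Trp53+/+ MEFs of the 29 tested genes of the other lists (x axis, grouped by role), in the Pole4-/- and the Pole4+/+ background; open points have an adjusted p of 0.05 or more. Of the 29 genes, 25 are called in Pole4-/- cells, 22 of them above 0, and 5 in Pole4+/+ cells.

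Genes of the cell cycle and targets of TRP53 were measured beside the 9 genes, because PCNA is itself made mainly in S phase. All 16 S-phase genes, none of them a member, and all 12 G2/M genes rose from Trp53+/+ to Trp53-/- among Pole4-/- MEFs (21.8% of all genes rose), while 8 of the 16 and 12 of the 12 were lower without than with Pole4 in Trp53+/+ cells (2.7% of all genes). The latter comparison called 8 to 799 of all genes without 1 library and 11 with log2 Xist as a covariate, against 626, so these list counts rest on few libraries. Among Pole4+/+ MEFs 0 of the 16 and 4 of the 12 rose in Trp53-/- cells, where 2.23% of all genes did, and 14 of the 16 and 12 of the 12 without replicate 1 of Pole4+/+ Trp53-/-, where 8.58% did. Without Pole4 the summed level of the S-phase genes was 450 to 484 CPM in Trp53+/+, 649 to 919 CPM in Trp53+/- and 1277 to 1574 CPM in Trp53-/- MEFs. With Pole4 it was 661 to 938 CPM in Trp53+/+, 785 to 914 CPM in Trp53+/- and 732, 1316 and 1562 CPM in Trp53-/- MEFs, with replicate 1 the lowest.

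As a share of that sum in the same library, the level of Pcna lay between 8.28% and 11.2% in all 18 libraries, a 1.35-fold range against a 3.15-fold range of its CPM. The share of Rad18 lay between 2.46% and 3.54%, a 1.44-fold range against 3.22-fold in CPM, and that of Polh between 2.03% and 3.91%, a 1.92-fold range against 2.51-fold. The share of Polk ranged 11.4-fold, from 1.07% to 12.2%, against 3.53-fold in CPM. Polk fell where the S-phase sum rose in Pole4-/- MEFs, and dividing by that sum widens such an opposite change. In Pole4-/- MEFs the share of Pcna was 10.4% ± 0.872 in Trp53+/+ and 9.53% ± 0.857 in Trp53-/- cells (SD, n = 3 each), and the groups overlapped. That of Rad18 was 3.29% ± 0.228 and 2.93% ± 0.338, also with overlap, and that of Polh 3.31% ± 0.55 in Trp53+/+ and 2.43% ± 0.267 in Trp53-/- cells, without. The part of cell cycle genes in the changes of Pcna, Rad18, Polh and Polk was not tested.

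Of 12 TRP53 targets 11 fell in Trp53-/- cells in the Pole4-/- and 12 in the Pole4+/+ background, where 20.8% and 2.37% of all genes fell. Cdkn1a fell from between 232 and 363 CPM in the 6 Trp53+/+ libraries to between 5.17 and 12 CPM in the 6 Trp53-/- libraries. The summed level of the 12 targets was 2102 to 2244 CPM in Trp53+/+, 1596 to 1799.8 CPM in Trp53+/- and 307 to 351 CPM in Trp53-/- MEFs lacking Pole4, and 1618 to 1934 CPM, 1246 to 1442 CPM and 311 to 378 CPM where Pole4 was intact. Polk and this sum thus had the same order of Trp53 genotypes in both backgrounds, with no overlap.

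**Figure D5:**
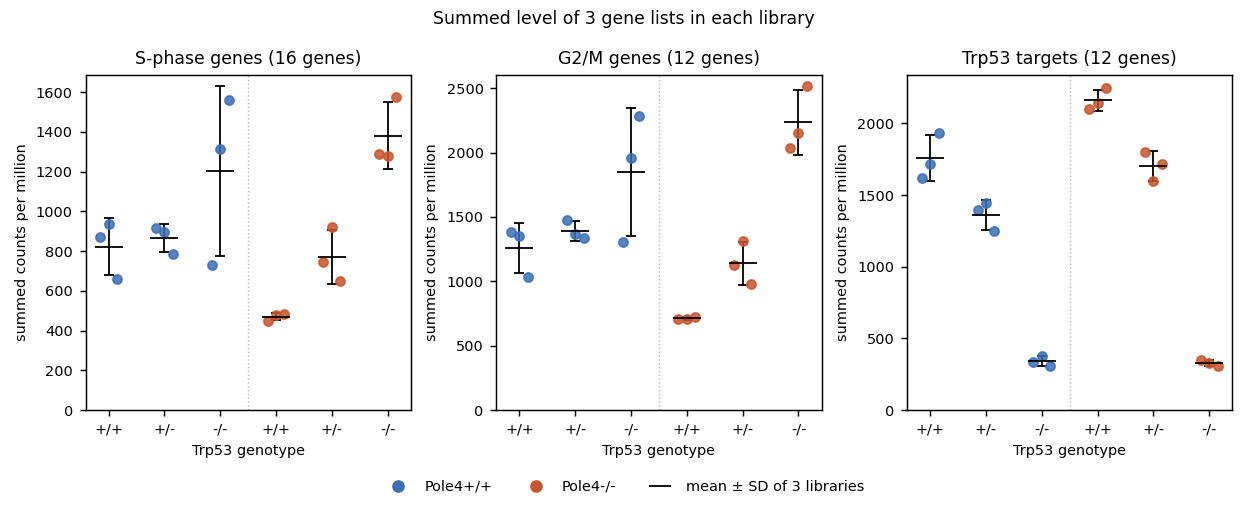
Summed level of 16 S-phase genes, 12 G2/M genes and 12 TRP53 targets in each library (y axes, CPM after TMM scaling, from 0), by Trp53 genotype (x axes); points are libraries, colored by Pole4 genotype, and bars give the mean ± SD of 3 libraries. The S-phase sum is lowest in Pole4-/- Trp53+/+ MEFs (450 to 484 CPM), and the TRP53 target sum is at most 378 CPM in all 6 Trp53-/- libraries.

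Markers of other cell types were compared too, since some moved with the genotypes. The summed level of 8 fibroblast markers was 24875 to 30928 CPM in Trp53+/+ and 13702 to 16509 CPM in Trp53-/- MEFs lacking Pole4, and 16325 to 21991 CPM and 15831 to 21195 CPM in the Pole4+/+ counterparts. That of 7 macrophage markers was at most 50.3 CPM in any library, and its ranges overlapped between these genotypes in both backgrounds. The sum of 6 skeletal muscle markers, led by Des, was 46.7 to 66.7 CPM in the former and 25.0 to 35.3 CPM in the latter of the Pole4-/- genotypes, and 42.6 to 72.0 CPM and 18.6 to 30.5 CPM in the Pole4+/+ counterparts, without overlap in either background, while Myod1 and Myog were at most 1.05 and 1.45 CPM in any library. The sum of 4 neuronal markers was 64.5 to 80.6 CPM and 110 to 132 CPM in the Pole4-/- and 57.7 to 76.3 CPM and 74.6 to 123 CPM in the Pole4+/+ genotypes, carried by Tubb3 and Stmn2, while Snap25 and Elavl3 were at most 0.266 and 0.349 CPM. The sum of 5 epithelial markers, led by Krt18, was 2.02 to 2.67 CPM in Trp53+/+ and 4.40 to 20.2 CPM in Trp53-/- MEFs lacking Pole4, without overlap, and 2.75 to 6.76 CPM and 2.90 to 15.4 CPM with Pole4. That of 5 endothelial markers was at most 8.29 CPM in any library and overlapped between these genotypes in both backgrounds. Whether these shifts take part in the changes of the 9 genes was not tested.

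For each member called in a comparison, the genes with the most similar pattern over the 18 libraries were found from the root mean square difference of centred log2 CPM, where a smaller value means a closer pattern. Nearest to Polk were Susd6 (0.13), Exoc4 (0.15) and Trim11 (0.15), against an SD of Polk itself of 0.65. Nearest to Pcna were Exosc8 (0.08), Ube2c (0.10) and Set (0.10), against an SD of 0.52. Rad18 was close to Hmmr (0.08) and Ndc1 (0.08), against 0.48, and Polh to Nup205 (0.11), Nup107 (0.11) and Mcph1 (0.11), against 0.38. For Rev1, whose SD was 0.18, these were Rbm5 (0.06), Gigyf2 (0.06) and Brwd3 (0.07).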

How the data were processed

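RNA-seq was analysed from 18 libraries of primary MEFs, 3 for each of 6 genotypes taken from the sample labels. The authors trimmed reads with Trim Galore (quality 20), aligned them with STAR 2.5.2 to GRCm38 and estimated counts per gene with RSEM 1.3.0 (Ensembl annotation); the deposited values are these expected counts, not normalized, and 6.14% were not whole. They were rounded here. RSEM divides reads between similar genes, which touches Pcna.

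Of 51912 identifiers, 51719 matched GENCODE's annotation of GRCm38. Genes were filtered with filterByExpr and fitted with edgeR 4.0.16 (R 4.3.3): TMM scaling, 1 mean per genotype over 18 libraries (12 residual degrees of freedom), quasi-likelihood F-tests with robust dispersions and Benjamini-Hochberg adjustment over 15710 genes. A gene was called at an adjusted p under 0.05. The SE is the log2 fold change divided by the square root of F. The fit was also run on simulated data, with results not given here. The median depth was 22781543 counts, and counting error limits Poli most. With 3 libraries against 3, an exact permutation test cannot give a p under 0.1. Genotypes were compared in 9 pairs and 2 interactions. Alternatives were DESeq2 1.42.0, other scalings and filters, voom weights (limma 3.58.1), Xist or ribosomal RNA as a covariate, the replicate number as a block, and leaving out each library. Promoter windows are RefSeq's (GRCm38.p6).

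The members, the lists and the rule for named genes were chosen with earlier results of these data known. The rule names the 9 members, Trp53, Pole4 and Cdkn1a; of the other lists, the genes called in both Trp53-/- against Trp53+/+ comparisons and, per pathway list, the called genes with the lowest and highest log2 fold change in the Pole4-/- background; and the 3 nearest patterns of each called member, from log2 CPM with a prior count of 2. 1 gene that this rule names is not reported here. The shares of the S-phase sum, the motifs and the list counts without a library were added after the values were seen. The motifs searched are those the text names, a palindrome being counted once.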

Additional observations from a re-analysis of the deposited data

How the results depend on the processing

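The calls of Polk, Polh, Rad18 and Pcna between Pole4-/- Trp53-/- and Pole4-/- Trp53+/+ MEFs, and that of Polk in the Pole4+/+ background, held under all 10 alternatives and without any 1 library. In the first comparison the alternatives called 4 to 7 members, 7 with voom (3722 to 8126 genes in all, against 6699). Without any 1 library 4 to 5 members were called in the first (5108 to 6007 genes in all) and 1 to 3 in the second (325 to 2700, against 723). In these fits the number of members called was 0 to 1 for Trp53+/- against Trp53+/+ in Pole4-/- (17 to 553 genes in all, against 805). For Trp53-/- against Trp53+/- it was 2 to 4 in Pole4-/- and 1 to 3 in Pole4+/+ (654 to 1803 and 56 to 1501, against 1963 and 91). It was 0 to 4 for Pole4-/- against Pole4+/+ in Trp53+/+ cells (8 to 799, against 626) and 0 to 4 for the Trp53-/- interaction (0 to 3242, against 52). In the other 4 comparisons it was 0, where at most 101 of all genes were called. limma voom with quality weights gave every library its own weight. In Pole4+/+ comparisons of Trp53-/- it called 3 members against Trp53+/+ and 3 against Trp53+/- (2946 and 1193 genes in all, against 723 and 91). It called 5 for Trp53+/- in Pole4-/- (3862 against 805), 7 for Pole4-/- in Trp53+/+ cells (5229 against 626) and 3 in the interaction (1234 against 52). For Trp53+/- in Pole4-/-, DESeq2, library totals alone and a fit of only the libraries compared each called 4 members (1735, 2163 and 2682 genes in all, against 805), and the Xist covariate 0, as it did for Pole4-/- in Trp53+/+ cells. The interaction had 3 with DESeq2, 1 with upper-quartile scaling and 2 without a filter or with a mean of at least 50 counts (1791, 308, 339 and 490 genes in all, against 52). Library totals alone called 1 member from Trp53+/- to Trp53-/- in Pole4-/- (1252 genes, against 1963), and shifted the median log2 fold change of all genes to −0.28 for Pole4-/- in Trp53+/+, 0.29 for Trp53+/- in Pole4-/- and −0.33 for Trp53-/- against Trp53+/- in Pole4-/- cells, beside unequal ribosomal RNA shares; Rev1 then changed sign in the first (−0.033) and the second (0.042), where 2.54% and 97% of all called genes were higher, against 32.3% and 57.8%. In Pole4+/+ cells lacking Trp53, signs turned under voom for Poli (−0.069), Rev3l (−0.17) and Primpol (−0.22), and for Primpol with the ribosomal RNA covariate (−0.022); without any 1 library Poli ranged from −0.25 to 0.29, Rev3l from −0.23 to 0.32 and Primpol from −0.25 to 0.29, and Primpol in Pole4-/- from −0.34 to 0.090. The replicate number was not treated as a pairing, since 22 of 45 same-numbered pairs of libraries deviated together with a correlation over 0.1 (range −0.26 to 0.59), although 13 of 18 libraries correlated best with their own number; as a block it called 1 member for Trp53+/- in Pole4-/- and 2 in the interaction (983 and 548 genes, against 805 and 52), and otherwise within 1.5 times. Where not stated, the cause of a change was not tested.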
